A study of Mus musculus with 6 samples.

Results

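Hair shaft and inner root sheath structural genes were taken from a list of 30 gene symbols that covers the keratins of the inner root sheath, the companion layer, the matrix and cortex and the cuticle of the hair shaft, together with proteins that pack around these filaments. Of the 30 genes, 29 were matched to the count table, which lists 26579 genes, and 1 was not analysed here. The 29 genes comprise 13 type I keratins on chromosome 11, 10 type II keratins on chromosome 15, and 6 non-keratin genes on chromosomes 3, 6 and 8. They fall into 8 inner root sheath keratins, 1 companion layer keratin, 9 matrix and cortex keratins, 4 cuticle keratins, the tongue-type hard keratin Krt84 and the 6 non-keratin genes. The list was set by gene name, with no threshold on expression.

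The study compared skin of YAP2-5SA-deltaC transgenic mice with skin of wild type littermates to find the genes that respond to YAP activity in the epidermis. The transgene encodes a mildly active mutant of Yes-associated protein (YAP), a transcriptional co-activator restrained by the Hippo pathway, and it is expressed in basal keratinocytes that carry Keratins 5 and 14. RNA-Seq was done on 3 wild type and 3 transgenic mice, 6 libraries in all, each made from a dorsal neck skin biopsy of a female mouse 33 days old, when the transgenic animals showed the first visible signs of their phenotype. Total counts assigned to genes ranged from 11225705 to 19505036 per library. The biopsies were whole skin with the fur trimmed. They held epidermis, dermis and follicles, whose stage of the hair cycle the labels do not give, so fewer follicle cells of a type and less RNA per cell cannot be told apart in these values. The listed genes were abundant, which fits the labelled tissue: together they held between 18160 and 24710 CPM (counts of a gene scaled to a fixed library total) in the wild type libraries. The labels give each library a genotype and a replicate number and name no further batch, and the study describes 3 mice of each genotype.

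The hair shaft grows from matrix cells at the base of the follicle, which surround the dermal papilla and differentiate into concentric layers. Inner root sheath cells fill with their own keratins and with trichohyalin, and shape the shaft before they are degraded. Cells of the cortex and cuticle fill with hard, sulphur-rich keratins that are cross-linked with keratin-associated proteins. Type I and type II keratins pair to form each filament, and hair structural genes are transcribed in the growing follicle and are silent in the resting follicle.

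Promoter sequences were examined because the shaft keratins are known targets of LEF1, the transcription factor that carries Wnt signals in the matrix, and because YAP acts through TEAD factors. RefSeq windows of 300 bases (GRCm38.p6), from 250 bases before the start of transcription to 50 bases after it, were found for 23 of the 29 genes, giving 26 windows. There was no entry for Krt74, Krt33a, Krt35, Krt81, Krt83 or Krt86. Each window was searched on both strands for the LEF1/TCF word CTTTGAA (reverse TTCAAAG), the TEAD word GGAATG (reverse CATTCC) and the TATA word TATAAA (reverse TTTATA). The matches marked did not overlap. Shown here are the windows of 3 neighbouring cortex keratins (Krt33b, Krt34 and Krt31), 1 cuticle keratin (Krt32) and the most abundant keratin of each type in the inner root sheath (Krt25 and Krt71), each 5′ to 3′ on the strand of the gene, with the words found in capitals:
Krt33b (chr11:100029819-100030118, minus strand): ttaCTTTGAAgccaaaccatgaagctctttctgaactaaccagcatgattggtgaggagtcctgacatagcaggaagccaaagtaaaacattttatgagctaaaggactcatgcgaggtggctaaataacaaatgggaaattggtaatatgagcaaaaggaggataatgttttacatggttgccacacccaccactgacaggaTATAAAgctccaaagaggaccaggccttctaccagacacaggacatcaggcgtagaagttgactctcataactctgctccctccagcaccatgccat
Krt34 (chr11:100041505-100041804, minus strand): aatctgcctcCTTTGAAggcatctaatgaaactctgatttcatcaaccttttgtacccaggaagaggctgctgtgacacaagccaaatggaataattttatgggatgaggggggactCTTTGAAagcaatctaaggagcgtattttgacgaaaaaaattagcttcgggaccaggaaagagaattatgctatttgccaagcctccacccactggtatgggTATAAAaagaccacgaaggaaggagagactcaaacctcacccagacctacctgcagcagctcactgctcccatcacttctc
Krt31 (chr11:100050502-100050801, minus strand): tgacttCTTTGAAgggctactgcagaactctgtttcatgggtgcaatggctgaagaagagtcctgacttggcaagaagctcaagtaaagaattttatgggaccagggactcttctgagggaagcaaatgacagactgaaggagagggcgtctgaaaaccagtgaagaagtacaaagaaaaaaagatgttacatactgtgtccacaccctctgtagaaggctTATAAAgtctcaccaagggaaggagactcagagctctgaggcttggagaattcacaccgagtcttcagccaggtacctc
Krt32 (chr11:100088220-100088519, minus strand): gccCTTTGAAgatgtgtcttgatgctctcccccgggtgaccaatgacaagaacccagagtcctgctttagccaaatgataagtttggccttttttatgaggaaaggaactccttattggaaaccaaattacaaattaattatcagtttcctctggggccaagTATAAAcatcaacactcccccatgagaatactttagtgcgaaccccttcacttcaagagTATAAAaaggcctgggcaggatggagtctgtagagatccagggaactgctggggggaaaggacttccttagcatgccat
Krt25 (chr11:99322902-99323201, minus strand): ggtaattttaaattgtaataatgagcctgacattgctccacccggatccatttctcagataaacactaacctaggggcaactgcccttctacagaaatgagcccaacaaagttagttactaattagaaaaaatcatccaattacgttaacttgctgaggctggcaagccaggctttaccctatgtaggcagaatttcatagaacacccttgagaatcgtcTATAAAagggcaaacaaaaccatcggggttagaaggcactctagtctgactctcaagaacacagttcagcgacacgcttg
Krt71 (chr15:101743048-101743347, minus strand): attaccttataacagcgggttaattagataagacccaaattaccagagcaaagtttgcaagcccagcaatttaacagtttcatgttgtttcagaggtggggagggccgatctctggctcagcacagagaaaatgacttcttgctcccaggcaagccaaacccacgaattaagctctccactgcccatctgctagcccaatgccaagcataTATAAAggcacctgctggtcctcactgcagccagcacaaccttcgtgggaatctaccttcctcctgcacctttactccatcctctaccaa

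The LEF1/TCF word was present in 7 of the 26 windows (26.9%), against 5.14% of all 32851 promoter windows of the same length. In the matrix and cortex class it was found in 3 of 4 windows, those of Krt31, Krt33b and Krt34, and not in that of Krt36. It started 244 bases before the transcription start in Krt31, 247 bases before it in Krt33b, and 240 and 133 bases before it in Krt34. In the cuticle class it was found in 2 of 4 windows, at 247 bases before the start in Krt32 and, on the reverse strand, at 19 bases before the start in Krt39. Among the inner root sheath keratins 1 of 7 windows held it, that of Krt28, beginning 14 bases after the start, and the windows of Krt25 and Krt71 did not. Tchh carried the word on both strands, at 159 and 144 bases before the start. The TATA word was present in 17 of 26 windows (65.4%, against 13.6% of all windows), including 7 of 7 inner root sheath keratins. In these it began 30 bases before the start in Krt25, Krt26, Krt28 and Krt73, 40 in Krt71 and 15 in Krt27. In Krt72 it lay on the reverse strand, 203 bases before the start, and Krt26 held a further match at 158 bases. The TEAD word was present in 2 of 26 windows (7.69%, against 14.7% of all windows), those of Tchhl1 and 1 of the 4 windows of S100a3. These matches describe the letters in each window, and binding was not measured.

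All 29 genes were lower in each YAP2-5SA-deltaC library than in any wild type library, whereas 18.2% of the 15102 tested genes showed that order. Their summed level was 18160, 24710 and 22760 CPM in wild type replicates 1, 2 and 3, and 9496, 1808 and 11830 CPM in YAP2-5SA-deltaC replicates 1, 2 and 3. The genotypes did not overlap, but YAP2-5SA-deltaC replicate 2 stood far below the other transgenic libraries. Against the wild type mean the sum was 2.30-fold lower in replicate 1, 12.1-fold lower in replicate 2 and 1.85-fold lower in replicate 3.

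The number of genes called differed between the tests. In edgeR's quasi-likelihood test on all 6 libraries, with Benjamini-Hochberg adjustment over the 15102 tested genes, 0 of the 29 genes passed a false discovery rate (FDR) of 0.05. Among all tested genes 0.464% were called lower by that rule. The FDR of the 29 genes ran from 0.0557 (Mt4) to 0.225 (Tchh), and 27 of them had an unadjusted p below 0.05, against 13.0% of all tested genes that did so and were lower. In edgeR's likelihood-ratio test, which the study used and which takes no account of the uncertainty of each gene's dispersion, 28 of 29 genes were called lower, with Tchh at an FDR of 0.0511, and 4.87% of all tested genes were called lower. Limma's voom, which the study used as well, called 0 of 29, against 0.417% of all tested genes called lower. It gave all 29 an unadjusted p below 0.05, against 13.4%. DESeq2 called 1 of 29, Mt4 (FDR = 0.00408), against 4.18% of all tested genes called lower.

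Without YAP2-5SA-deltaC replicate 2, the quasi-likelihood test called 26 of 29 genes lower, against 2.74% of all 14950 genes tested in that fit. The genes it did not call were Krt84 (FDR = 0.0825), Tchh (FDR = 0.0919) and Tchhl1 (FDR = 0.121). The log2 fold changes were then smaller, from -1.78 to -0.76, where those on all 6 libraries ran from -2.28 (Krt33b) to -1.20 (Krt74). The coefficient of variation across the 29 genes had a median of 15.5% among wild type libraries and 69.6% among YAP2-5SA-deltaC libraries. The results for each gene are therefore given with and without replicate 2. That library was singled out by its values for these same genes, so the FDRs without it are no independent support. Each fit that left out another library called 0 of the 29 genes. All 29 genes had at least 10 counts in every library, so none entered the test only through the group in which it was high.

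The order of the libraries was nearly the same for each gene. YAP2-5SA-deltaC replicate 2 was the lowest library for 29 of 29 genes, replicate 1 was next lowest for 27 and replicate 3 was the highest transgenic library for 27. Among the wild type libraries, replicate 2 was highest for 27 genes and replicate 1 lowest for 28.

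**Figure D1:**
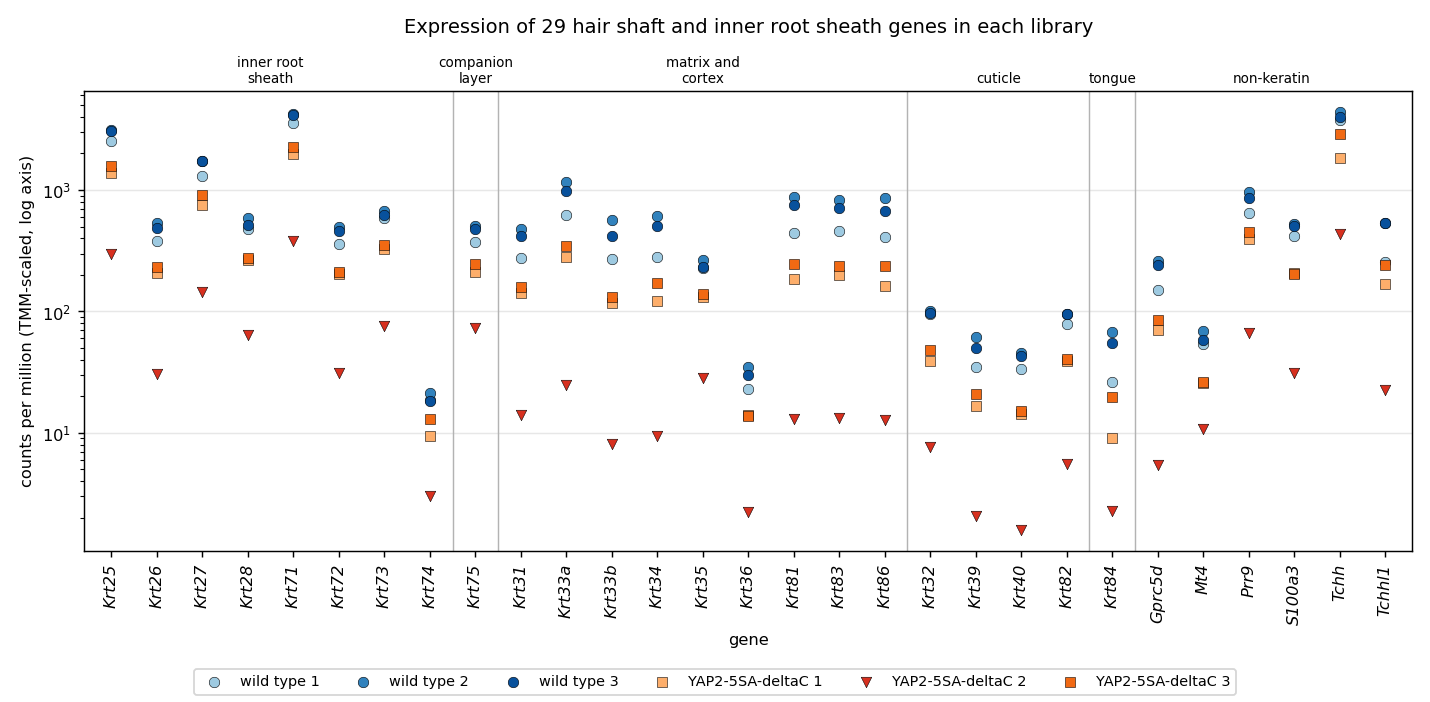
TMM-scaled CPM (log axis) of the 29 genes in each library, with circles for the 3 wild type libraries, squares for YAP2-5SA-deltaC replicates 1 and 3 and triangles for replicate 2, and genes grouped by structural class. For every gene the 3 wild type points lie above the 3 YAP2-5SA-deltaC points, and the triangle is the lowest point for 29 of 29 genes.

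The 8 inner root sheath keratins, Krt25 to Krt28 (type I) and Krt71 to Krt74 (type II), were between 1.93-fold and 2.25-fold lower than the wild type mean in YAP2-5SA-deltaC replicate 1, between 6.45-fold and 15.1-fold lower in replicate 2, and between 1.5-fold and 2.06-fold lower in replicate 3. Krt71, a type II keratin of all inner root sheath layers in which mutations give wavy coats, had 3549, 4254 and 4181 CPM in the wild type libraries and 1982, 378 and 2281 CPM in the YAP2-5SA-deltaC libraries. The groups were separate, with a narrow wild type range and 1 very low transgenic library. Its log2 fold change was -1.37 ± 0.57 (SE, n = 3 per genotype; quasi-likelihood FDR = 0.185), and -0.89 ± 0.14 without replicate 2 (FDR = 0.0216).

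Krt25, a type I partner, had 2516, 3112 and 3034 CPM in wild type skin and 1373, 295 and 1579 CPM in YAP2-5SA-deltaC skin, with a log2 fold change of -1.42 ± 0.54 (FDR = 0.155), and of -0.95 ± 0.14 without replicate 2 (FDR = 0.0182). Krt27, expressed in the same layers, had 1316, 1730 and 1722 CPM against 752, 144 and 902 CPM (log2 fold change -1.41 ± 0.58, FDR = 0.179, and without replicate 2 -0.93 ± 0.16, FDR = 0.0237). Both kept the library order of Krt71. Krt28 had 476, 586 and 514 CPM against 265, 63.8 and 274 CPM (log2 fold change -1.39 ± 0.48, FDR = 0.133, and without replicate 2 -0.95 ± 0.10, FDR = 0.00969). The keratins of the inner root sheath cuticle were Krt26, Krt72 and Krt73. Krt26 had 379, 534 and 484 CPM against 207, 30.8 and 232 CPM, and Krt72 had 362, 494 and 458 CPM against 204, 31.1 and 213 CPM. Krt73 had 594, 676 and 622 CPM against 328, 75.3 and 353 CPM. Their log2 fold changes were -1.57 ± 0.64, -1.55 ± 0.62 and -1.32 ± 0.50 on all libraries, and -1.07 ± 0.15, -1.06 ± 0.14 and -0.87 ± 0.09 without replicate 2. Krt26 and Krt72 had the lowest shares of the wild type mean in replicate 2 within this class (15.1-fold and 14.1-fold lower). Krt74, a keratin of the Huxley layer, was the least abundant, with 18.6, 21.2 and 18.3 CPM against 9.34, 3.00 and 12.9 CPM, and had the smallest log2 fold change of all 29 genes (-1.20 ± 0.44, FDR = 0.145, and without replicate 2 -0.79 ± 0.16, FDR = 0.0397). In this class 0 of 8 genes passed the quasi-likelihood test on all libraries (8 of 8 with an unadjusted p below 0.05, and 8 of 8 called by the likelihood-ratio test), and 8 of 8 passed without replicate 2, with FDR between 0.00851 and 0.0397. Of all tested genes, 0.464%, 13.0%, 4.87% and 2.74% were lower by these rules, in that order.

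Krt75, a type II keratin of the companion layer between the inner and the outer root sheath, had 375, 502 and 479 CPM in wild type skin and 213, 73.5 and 245 CPM in YAP2-5SA-deltaC skin. It was 6.14-fold below the wild type mean in replicate 2, the smallest gap there among the 23 keratins. The log2 fold change was -1.35 ± 0.40 (quasi-likelihood FDR = 0.0965), and without replicate 2 -0.96 ± 0.14 (FDR = 0.018).

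The summed level of the 9 matrix and cortex keratins was 3019, 5674 and 4723 CPM in wild type skin and 1356, 126 and 1680 CPM in YAP2-5SA-deltaC skin, which is 3.30-fold, 35.5-fold and 2.66-fold below the wild type mean. The 3 wild type libraries themselves differed here, with replicate 1 below the others. Within the class the genes divided in how far they lay below wild type. Krt31, Krt33a, Krt33b, Krt34, Krt81, Krt83 and Krt86, which are keratins of the differentiated cortex, were 28.0-fold to 52.6-fold lower in replicate 2, while Krt35 and Krt36 were 8.47-fold and 13.2-fold lower.

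Krt33b, a type I cortex keratin, had 269, 562 and 417 CPM in wild type skin and 118, 8.12 and 131 CPM in YAP2-5SA-deltaC skin. Its log2 fold change, -2.28 ± 0.86 (quasi-likelihood FDR = 0.151), was the largest in size of the 29 genes, and without replicate 2 it was -1.73 ± 0.29 (FDR = 0.023). Its neighbour Krt34 had 283, 615 and 506 CPM against 123, 9.47 and 171 CPM (log2 fold change -2.21 ± 0.87, FDR = 0.164, and without replicate 2 -1.66 ± 0.33, FDR = 0.038). Krt33a had 627, 1157 and 990 CPM against 281, 24.6 and 346 CPM (-2.09 ± 0.81, FDR = 0.16, and without replicate 2 -1.55 ± 0.26, FDR = 0.023). Krt31, at the end of the same gene row, had 277, 478 and 418 CPM against 141, 13.9 and 159 CPM (-1.90 ± 0.76, FDR = 0.168, and without replicate 2 -1.36 ± 0.22, FDR = 0.022). These 4 genes lie next to one another on chromosome 11 between positions 100011195 and 100050551 (GRCm38, GENCODE M21). The windows found for Krt31, Krt33b and Krt34 each hold the LEF1/TCF word, and Krt33a had no window. A link between the word and the fold changes was not tested.

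The type II cortex keratins followed the same order. Krt81 had 446, 868 and 749 CPM in wild type skin and 185, 13.1 and 246 CPM in YAP2-5SA-deltaC skin, so that replicate 2 was 52.6-fold below the wild type mean, the widest gap of the 29 genes. Krt86 had 411, 864 and 672 CPM against 163, 12.8 and 239 CPM, and Krt83 had 457, 828 and 709 CPM against 200, 13.2 and 235 CPM. Their log2 fold changes were -2.22 ± 0.88, -2.23 ± 0.87 and -2.15 ± 0.86, with FDR between 0.163 and 0.17. Without replicate 2 they were -1.66 ± 0.29, -1.68 ± 0.32 and -1.60 ± 0.25, with FDR between 0.0193 and 0.0344. These 3 genes are adjacent on chromosome 15 and nearly identical in part: of the 75-base words of the longest coding transcript of Krt81, 35.5% also occur in another gene, chiefly Krt86. The corresponding shares were 33.5% for Krt86 (chiefly Krt81), 12.5% for Krt83 (chiefly Krt86), 24.7% for Krt34 (chiefly Krt31) and 19.1% for Krt31 (chiefly Krt34). Only uniquely mapped reads were counted, and how many reads from such stretches were lost was not measured, so levels of these genes are uncertain relative to one another.

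Krt35, which is switched on early, in the matrix and lower cortex, had 226, 266 and 232 CPM in wild type skin and 132, 28.5 and 140 CPM in YAP2-5SA-deltaC skin. Its wild type values were closer together than those of the other abundant cortex keratins, and its log2 fold change was -1.27 ± 0.51 (FDR = 0.175; without replicate 2 -0.81 ± 0.09, FDR = 0.0111). Krt36 had 23.03, 35.2 and 30.1 CPM against 14.0, 2.24 and 13.7 CPM (-1.56 ± 0.58, FDR = 0.146, and without replicate 2 -1.08 ± 0.18, FDR = 0.0235). In the class 0 of 9 genes passed the quasi-likelihood test on all libraries (9 of 9 with an unadjusted p below 0.05), 9 of 9 passed the likelihood-ratio test, and 9 of 9 passed the quasi-likelihood test without replicate 2. The shares of all tested genes that were lower by these rules were 0.464%, 13.0%, 4.87% and 2.74%, in that order.

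**Figure D2:**
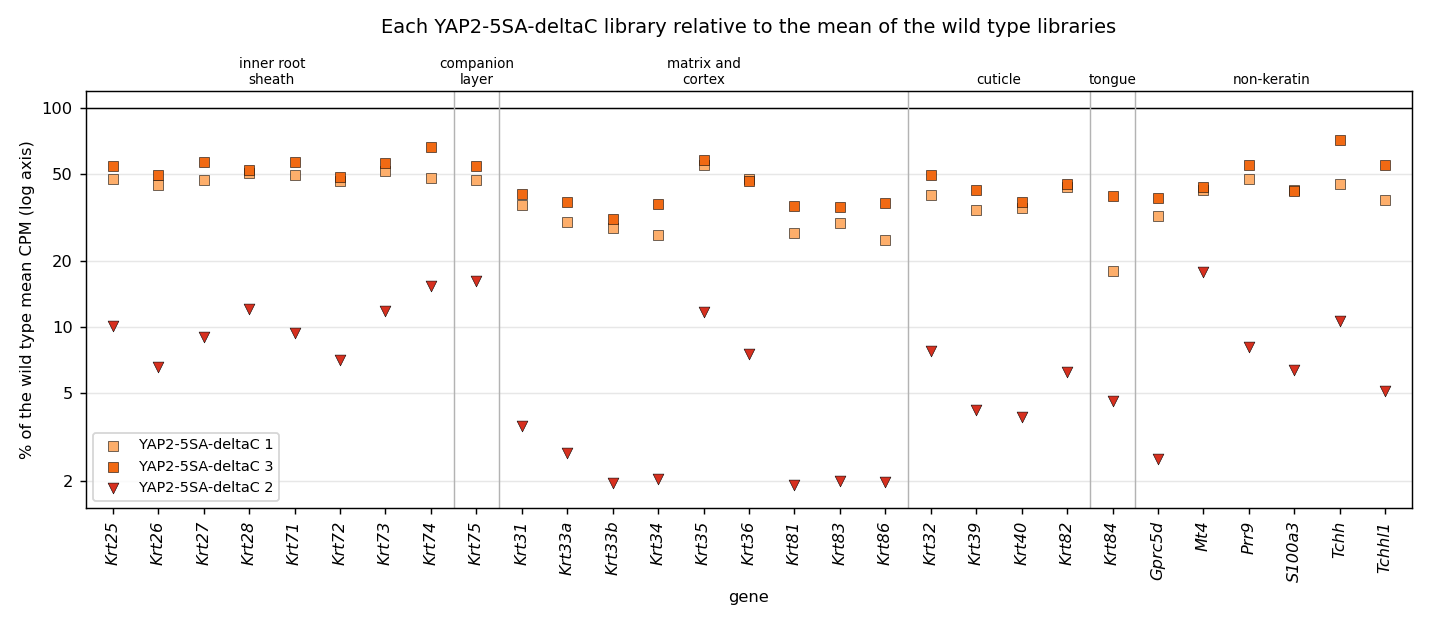
Level of each gene in each YAP2-5SA-deltaC library as a percentage of the mean of the 3 wild type libraries (log axis, line at 100%), with squares for replicates 1 and 3 and triangles for replicate 2. The triangles of 7 matrix and cortex keratins lie lowest together with that of Gprc5d, while Krt35 and Krt36 lie with the inner root sheath keratins.

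The 4 keratins of the hair shaft cuticle were Krt32, Krt39 and Krt40 (type I) and Krt82 (type II), and their sum was 243, 302 and 285 CPM in wild type skin and 109, 16.9 and 125 CPM in YAP2-5SA-deltaC skin. Krt32 had 94.7, 101 and 97.3 CPM against 39.3, 7.65 and 48.5 CPM, with the smallest wild type coefficient of variation of the 29 genes (3.07%). Its log2 fold change was -1.62 ± 0.56 (FDR = 0.133), and -1.14 ± 0.10 without replicate 2 (FDR = 0.00824). An antisense gene, Gm11571, overlaps 14.5% of its exon bases, and the strand setting of the counting is not given in the sources used here. Krt82 had 79.5, 94.5 and 94.7 CPM against 39.1, 5.59 and 40.5 CPM (-1.66 ± 0.62, FDR = 0.149, and without replicate 2 -1.15 ± 0.10, FDR = 0.00824). Krt39 had 34.9, 61.6 and 50.4 CPM against 16.7, 2.06 and 20.8 CPM (-1.89 ± 0.69, FDR = 0.143, and without replicate 2 -1.37 ± 0.24, FDR = 0.0274). Krt40 had 33.8, 45.2 and 42.7 CPM against 14.2, 1.59 and 15.2 CPM (-1.97 ± 0.67, FDR = 0.125, and without replicate 2 -1.45 ± 0.14, FDR = 0.00851). All 4 kept the genotypes apart, against 18.2% of all tested genes that did so and were lower. In the quasi-likelihood test 0 of 4 passed on all libraries (4 of 4 with an unadjusted p below 0.05, and 4 of 4 called by the likelihood-ratio test), and 4 of 4 passed without replicate 2. By these rules 0.464%, 13.0%, 4.87% and 2.74% of all tested genes were lower, in that order.

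Krt84, a type II hard keratin best known from the filiform papillae of the tongue, was present at 26.1, 68.2 and 55.5 CPM in wild type skin and at 9.01, 2.30 and 19.9 CPM in YAP2-5SA-deltaC skin. It varied most of the 29 genes among wild type libraries (2.61-fold from lowest to highest). It was also the gene furthest below wild type in replicate 1 (5.54-fold). Its log2 fold change was -2.26 ± 0.70 (FDR = 0.106), and -1.78 ± 0.48 without replicate 2 (FDR = 0.0825).

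Among the 6 non-keratin genes, Tchh encodes trichohyalin, which binds keratin filaments together in the inner root sheath and medulla. It had 3761, 4402 and 3985 CPM in wild type skin and 1828, 432 and 2905 CPM in YAP2-5SA-deltaC skin. Replicate 3 came nearest to wild type for this gene (1.39-fold below the mean), and it had the highest FDR of the 29 genes (log2 fold change -1.23 ± 0.58, FDR = 0.225, and without replicate 2 -0.76 ± 0.21, FDR = 0.0919). Its relative Tchhl1 had 253, 532 and 537 CPM against 168, 22.6 and 242 CPM (-1.61 ± 0.74, FDR = 0.22, and without replicate 2 -1.09 ± 0.34, FDR = 0.121). The lowest wild type value exceeded the highest transgenic value only slightly there.

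S100a3, a cysteine-rich calcium-binding protein of the hair cuticle, had 420, 529 and 507 CPM in wild type skin and 206, 31.1 and 203 CPM in YAP2-5SA-deltaC skin (-1.73 ± 0.61, FDR = 0.136, and without replicate 2 -1.23 ± 0.11, FDR = 0.00824). Its exons overlap those of Gm42674 on the same strand over 2.54% of their bases. Gprc5d, an orphan receptor of the hair cortex, had 149, 261 and 241 CPM against 69.9, 5.41 and 84.8 CPM (-2.02 ± 0.82, FDR = 0.174, and without replicate 2 -1.47 ± 0.24, FDR = 0.022). At 40.1-fold below the wild type mean in replicate 2 it lay among the cortex keratins. Prr9, a small proline-rich protein, had 649, 965 and 860 CPM against 391, 66.8 and 454 CPM (-1.44 ± 0.61, FDR = 0.19, and without replicate 2 -0.95 ± 0.17, FDR = 0.03). Mt4, a metallothionein that other stratified epithelia express too, had 54.2, 69.2 and 58.3 CPM against 25.8, 10.8 and 26.5 CPM. The transgenic libraries varied least for Mt4 (coefficient of variation 42.0%), and replicate 2 was 5.59-fold below wild type, the smallest gap of the 29 genes. Its log2 fold change was -1.53 ± 0.32, with the lowest FDR of the set (0.0557 by the quasi-likelihood test and 5.59e-06 by the likelihood-ratio test). Without replicate 2 it was -1.20 ± 0.12 (FDR = 0.00851). In this class 0 of 6 genes passed the quasi-likelihood test on all libraries (4 of 6 with an unadjusted p below 0.05, and 5 of 6 called by the likelihood-ratio test), and 4 of 6 passed without replicate 2. Over all tested genes the shares that were lower by these rules were 0.464%, 13.0%, 4.87% and 2.74%, in that order.

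**Figure D3:**
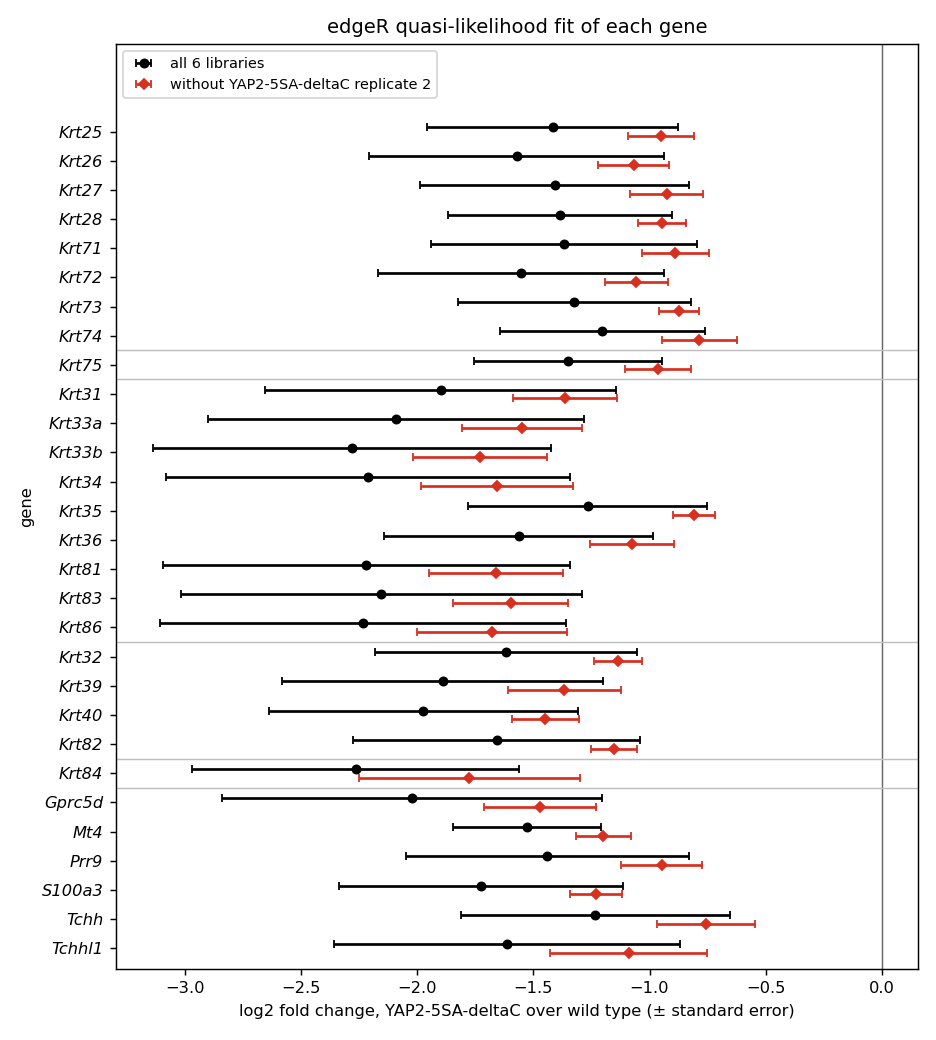
Log2 fold change of each gene, YAP2-5SA-deltaC over wild type, with its standard error from edgeR's quasi-likelihood fit, on all 6 libraries (black circles) and without YAP2-5SA-deltaC replicate 2 (red diamonds). All values lie below 0 in both fits, between -2.28 and -1.20 on all libraries and between -1.78 and -0.76 without replicate 2, where the standard errors are smaller.

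The classes did not keep their proportions. Matrix and cortex keratins made up 16.6%, 22.96% and 20.8% of the summed CPM of the 29 genes in wild type skin and 14.3%, 6.97% and 14.2% in YAP2-5SA-deltaC skin. Inner root sheath keratins made up 50.7%, 46.2% and 48.5% against 53.9%, 56.5% and 49.4%. The groups were apart for the first share and overlapped for the second. The ratio of summed matrix and cortex keratins to summed inner root sheath keratins was 0.328, 0.497 and 0.428 in wild type libraries (0.418 ± 0.085, SD, n = 3) and 0.265, 0.123 and 0.287 in YAP2-5SA-deltaC libraries (0.225 ± 0.089, SD, n = 3). The difference was larger than the spread in either genotype, but wild type replicate 1 lay nearer to the transgenic replicate 3 than to wild type replicate 2. For cuticle keratins over inner root sheath keratins the ratio was 0.0264, 0.0265 and 0.0258 against 0.0213, 0.0165 and 0.0214, with means of 0.0262 ± 0.00033 and 0.0198 ± 0.0028 (SD, n = 3), and the groups were apart. No test was made on these ratios.

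Ratios between single genes showed the same division within the cortex class. Krt34 over Krt35 was 1.25, 2.32 and 2.18 in wild type skin and 0.930, 0.333 and 1.22 in YAP2-5SA-deltaC skin, so that the lowest wild type and the highest transgenic library were close. Krt81 over Krt35 was 1.97, 3.27 and 3.23 against 1.40, 0.459 and 1.75. Ratios within a layer varied less between libraries, but not all of them overlapped. Krt71 over Krt25 was between 1.37 and 1.41 in wild type libraries and between 1.28 and 1.45 in YAP2-5SA-deltaC libraries, and S100a3 over Krt82, both cuticle genes, was between 5.29 and 5.60 against 5.01 and 5.57. Those groups overlapped. Krt72 over Krt71, both of the inner root sheath, was 0.102, 0.116 and 0.110 against 0.103, 0.0822 and 0.0932, overlapping through replicate 1 and lowest in replicate 2. Krt33b over Krt33a, both of the cortex, was 0.429, 0.486 and 0.422 against 0.420, 0.329 and 0.378, so that the groups were apart by a narrow margin and replicate 2 was again lowest. Krt75 over Krt71 was between 0.105 and 0.118 in wild type skin and 0.107, 0.194 and 0.107 in YAP2-5SA-deltaC skin, so that only replicate 2 departed from the wild type range.

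**Figure D4:**
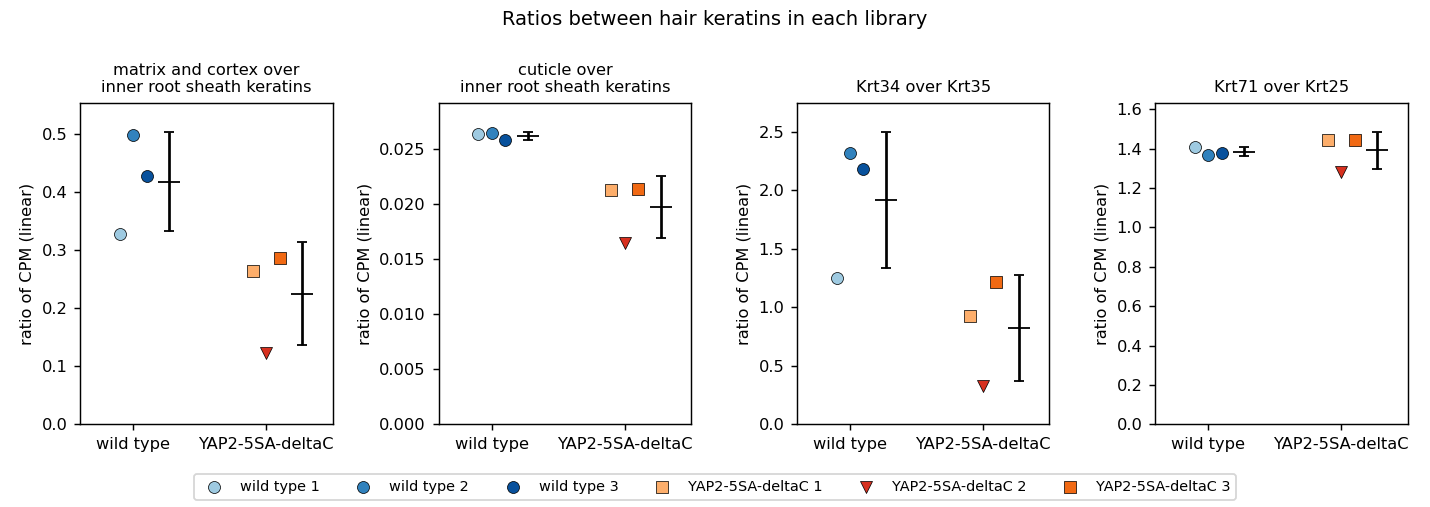
Ratios of CPM (linear axes from 0) in each library for matrix and cortex over inner root sheath keratins, cuticle over inner root sheath keratins, Krt34 over Krt35 and Krt71 over Krt25, with the mean and SD of each genotype (n = 3) beside the points. The genotypes are apart in the first 3 panels, where YAP2-5SA-deltaC replicate 2 (triangle) is lowest, and overlap for Krt71 over Krt25.

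Levels of different genes were compared as CPM per kilobase of merged exon length. In wild type skin the highest mean levels were those of Krt71 (1827 CPM per kb), Krt25 (1452 CPM per kb) and Krt27 (1026 CPM per kb), followed by Prr9 (697 CPM per kb) and Tchh (695 CPM per kb). The highest measured level of a cortex keratin was that of Krt33a (448 CPM per kb), where Krt86 had 330.6 and Krt81 had 324.5 CPM per kb. That rank is uncertain, because the transcript words shared with another gene were 14.4% for Krt33a, 33.5% for Krt86 and 35.5% for Krt81. The reads lost from such stretches were not measured. The lowest levels were those of Krt74 (11.8 CPM per kb), Krt36 (17.6 CPM per kb) and Krt84 (18.9 CPM per kb). Summed per kilobase, type II over type I keratins of the inner root sheath was between 0.790 and 0.833 in wild type skin and between 0.779 and 0.836 in YAP2-5SA-deltaC skin, so that the genotypes overlapped. For the matrix and cortex keratins that quantity was 0.716, 0.75 and 0.752 in wild type skin and 0.633, 0.442 and 0.697 in YAP2-5SA-deltaC skin, without the listed gene that was not analysed here.

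Keratin-associated proteins, the matrix in which cortex and cuticle filaments are embedded, were measured as 54 genes, of which 53 passed the count filter. The quasi-likelihood test called 0 of 53 (32 with an unadjusted p below 0.05, all lower), the likelihood-ratio test called 52 lower, voom 0 and DESeq2 4, and without YAP2-5SA-deltaC replicate 2 the quasi-likelihood test called 44 lower. The shares of all tested genes called lower were 0.464%, 4.87%, 0.417%, 4.18% and 2.74% by these rules, in that order. With an unadjusted p below 0.05 in the quasi-likelihood test, 13.0% were lower. In 15 of the 53 genes at least 1 YAP2-5SA-deltaC library was below 1 CPM while no wild type library was, so that they passed the count filter with the help of their wild type level, and the counts carry that limit. The summed level of the 54 genes was 5627, 10820 and 9231 CPM in wild type skin and 2359, 148 and 3193 CPM in YAP2-5SA-deltaC skin. Replicate 2 was 57.8-fold below the wild type mean, where the summed matrix and cortex keratins were 35.5-fold below it. Krtap4-13, which had the lowest p of them (quasi-likelihood FDR = 0.0596), is one of the 15 genes with a transgenic library below 1 CPM, so its p is subject to the same limit. As a difference between genotype means of log2 CPM, which weights a low library more than the fitted fold changes do, the list median was -2.78, against -2.91 for the matrix and cortex keratins, -2.24 for the cuticle keratins, -1.74 for the inner root sheath keratins, -1.97 for the non-keratin genes and -0.01 for all tested genes. Without replicate 2 the class medians were -1.57, -1.25, -0.95 and -1.13, in that order.

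Among 13 transcription factors of hair differentiation, 1 fell in the quasi-likelihood test and 0 rose, while 12 had an unadjusted p below 0.05 and were lower. The likelihood-ratio test and DESeq2 each called 7 lower, and the quasi-likelihood test without YAP2-5SA-deltaC replicate 2 called 8. Over all tested genes 0.464% fell by the quasi-likelihood test, and 13.0% were lower and 13.3% higher with an unadjusted p below 0.05. By the likelihood-ratio test, by DESeq2 and without that replicate, 4.87%, 4.18% and 2.74% fell. The counts in this paragraph stand beside these shares. The gene that fell in the quasi-likelihood test on all libraries was Trps1, a zinc finger factor of the follicle, with 236, 211 and 215 CPM in wild type skin and 158, 121 and 146 CPM in YAP2-5SA-deltaC skin (log2 fold change -0.64 ± 0.11, FDR = 0.0437). The median over the 13 genes was -0.65. Among 11 genes for cross-linking and adhesion in hair, 0 passed the quasi-likelihood test, while 7 were lower and 1 higher with an unadjusted p below 0.05 and as many by the likelihood-ratio test. The lowest p was that of Hephl1, a copper-dependent oxidase (FDR = 0.0744), and the gene that was higher was Tgm5, named after its value was seen. Among 10 growth signals of the follicle 0 passed, 5 were lower with an unadjusted p below 0.05 and 3 by the likelihood-ratio test (in 1 of the 10 a YAP2-5SA-deltaC library was below 1 CPM), led by Wnt5a (FDR = 0.0555), with a list median of -0.38.

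Other cells of the follicle and skin were followed with marker lists. Melanocytes, which deliver pigment to the growing shaft, were represented by 10 genes: 2 fell in the quasi-likelihood test, Tyrp1 (-1.16 ± 0.21, FDR = 0.0468) and Dct (-0.80 ± 0.14, FDR = 0.0467), both enzymes of pigment synthesis, and all 10 had an unadjusted p below 0.05 and were lower. The likelihood-ratio test called all 10 lower, DESeq2 called 9, and the quasi-likelihood test without YAP2-5SA-deltaC replicate 2 called 9. The shares of all tested genes were 0.464% by the first rule and 13.0% by the second. By the likelihood-ratio test, by DESeq2 and without that replicate, 4.87%, 4.18% and 2.74% were called lower. The summed level of the melanocyte genes was 612, 539 and 590 CPM in wild type skin and 340, 196 and 330 CPM in YAP2-5SA-deltaC skin, with replicate 2 again lowest. In 1 of the 10 genes a YAP2-5SA-deltaC library was below 1 CPM. Of 7 outer root sheath and bulge genes 0 passed (2 lower and 2 higher with an unadjusted p below 0.05, 2 lower and 1 higher by the likelihood-ratio test, lowest p for Nfatc1, FDR = 0.0691) and the median was -0.18. Of 5 tested dermal papilla genes 0 passed (3 lower with an unadjusted p below 0.05, 1 by the likelihood-ratio test, lowest p for Fgf10, FDR = 0.0735).

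Of 7 tested markers of interfollicular epidermis 1 rose in the quasi-likelihood test, against 1.44% of all tested genes, and 4 were higher with an unadjusted p below 0.05, against 13.3% of all tested genes. The likelihood-ratio test called 4 higher and DESeq2 3, where they called 833 and 959 of all 15102 tested genes higher. The gene that rose in the quasi-likelihood test was Krt14, the basal keratin, with 1668, 1648 and 1629 CPM in wild type skin and 2845, 3407 and 3310 CPM in YAP2-5SA-deltaC skin (log2 fold change 0.95 ± 0.11, FDR = 0.03). The study, with its own edgeR test, reported Krt14 as apparently higher but short of its cut-off. The summed level of the epidermal list was between 7625 and 9640 CPM in wild type skin and 12050, 19280 and 12180 CPM in YAP2-5SA-deltaC skin, highest in replicate 2, where the hair genes were lowest. Of 9 sebaceous gland genes 1 rose in the quasi-likelihood test, Soat1 (0.94 ± 0.16, FDR = 0.045), and 8 were higher with an unadjusted p below 0.05. The likelihood-ratio test called 6 of the 9 higher and DESeq2 7. The sum of the sebaceous genes was between 2760 and 3663 CPM in wild type skin and between 4296 and 6139 CPM in YAP2-5SA-deltaC skin. Of 6 macrophage genes 2 rose in the quasi-likelihood test, Mrc1 (FDR = 0.0341) and Csf1r (FDR = 0.0456), and 5 were higher with an unadjusted p below 0.05. The likelihood-ratio test called 2 of the 6 higher and DESeq2 4. The sum of the macrophage genes was between 334 and 401 CPM against 482 and 529 CPM. None of these markers was at 0 in any library. Their part in the lower hair values was not tested.

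Skeletal muscle, which underlies the skin of the neck, gave sums of 1465, 7165 and 5827 CPM for 9 genes in wild type skin and 3613, 2333 and 1410 CPM in YAP2-5SA-deltaC skin, with overlapping groups and 0 of 9 genes called (0 with an unadjusted p below 0.05, 0 by voom, 0 by DESeq2 and 1 by the likelihood-ratio test, Pvalb having the lowest p). Wild type replicate 1 was low for muscle and lowest of the wild type libraries for hair genes, whereas YAP2-5SA-deltaC replicate 3 was lowest of all for muscle and highest of the transgenic libraries for hair genes. The part of muscle in the hair values was not tested. Adipocyte genes (6, lowest p for Plin1) and fibroblast genes (6, lowest p for Lum) had 0 called by the quasi-likelihood test and 0 by the likelihood-ratio test, while DESeq2 called 0 adipocyte genes and 2 fibroblast genes, both higher, against 6.35% of all tested genes that it called higher. With an unadjusted p below 0.05 there were 0 adipocyte genes and 3 fibroblast genes, all higher, against 13.3% of all tested genes, and their list medians were -0.01 and 0.27.

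**Figure D5:**
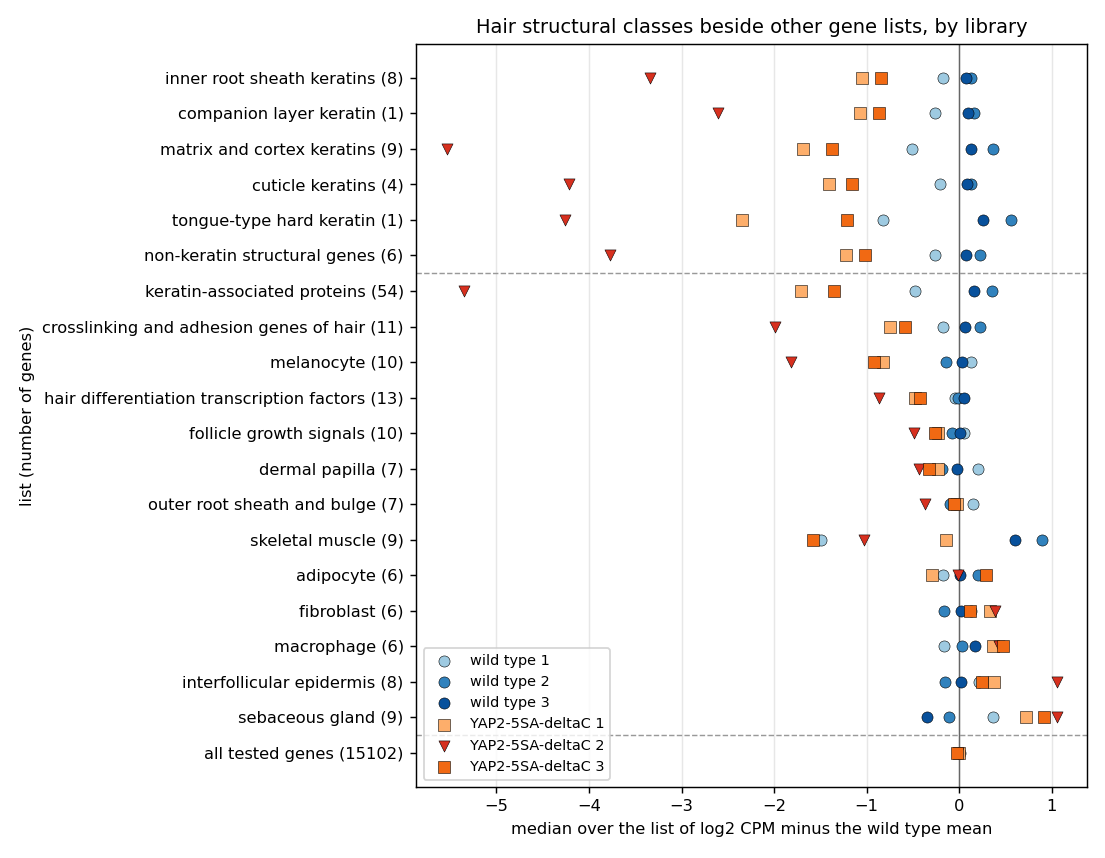
Median over each gene list of log2 CPM minus the wild type mean, for each of the 6 libraries, with hair structural classes above the upper dashed line and all tested genes at the bottom. YAP2-5SA-deltaC replicate 2 (triangles) is furthest to the left for the 6 hair structural classes, at -5.54 for matrix and cortex keratins and -3.34 for inner root sheath keratins, and also for each list from keratin-associated proteins down to outer root sheath and bulge, and it is furthest to the right for fibroblast, interfollicular epidermis and sebaceous gland genes.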

How the data were processed

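Total RNA from the skin biopsies was made into paired-end libraries and sequenced on an Illumina NextSeq. The labels name a stranded total RNA kit, whereas the study's methods speak of mRNA libraries. Per the submitters' processing notes and the study's methods, the authors mapped reads to GRCm38 (iGenomes) with TopHat2 and Bowtie2 2.1.0 and deposited raw counts of uniquely mapped reads per Ensembl gene from HTSeq-count (the notes name TopHat2 2.0.12, and the study another release). The annotation release and strand setting are not given in the sources used here.

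Samples were grouped by genotype from their labels. Symbols, positions and exon lengths came from GENCODE M21 (558 of 26579 identifiers were not found there). Genes that reached 1 CPM in 3 or more libraries (15102 genes) were kept, and their counts were scaled by TMM factors and tested with edgeR 4.0.16 (glmQLFit, glmQLFTest, R 4.3.3), with Benjamini-Hochberg adjustment over all tested genes and a threshold of 0.05. Standard errors are the size of the log2 fold change divided by the square root of F. List medians used log2 CPM with a prior count of 2. Alternatives were the likelihood-ratio test, limma 3.58.1 (voom), DESeq2 1.42.0, other scalings and filters, a block on replicate number, and fits that omit 1 library in turn. Scripts were tested on simulated data. No test over a gene list was made. With 3 libraries per genotype, p-values measure only the spread between these mice. The lowest count of any listed gene in any library was 27.

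All 29 analysed genes were named. Of each other list, genes with an FDR below 0.05 were named, up to the 4 with the lowest p, or else the gene with the lowest p. The genes and lists were chosen with earlier results of these data known.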

Additional observations from a re-analysis of the deposited data

How the results depend on the processing

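All 29 genes were lower in YAP2-5SA-deltaC skin under the 15 alternatives, and in 435 combinations of gene and alternative 0 reversed, 378 stayed on the same side of the threshold and 57 passed it only under the alternative. The number of genes called lower, 0 with all libraries and TMM factors, was 28 by the likelihood-ratio test, 1 by DESeq2, 1 with library sizes only and 1 without a count filter (Mt4 in each of these 3). It was 0 with RLE or upper-quartile factors, with at least 10 counts in every library and by voom. Leaving out 1 library at a time gave 0 to 26 calls, and the 26 came without YAP2-5SA-deltaC replicate 2. Over all genes, 70 were called lower and 218 higher by the quasi-likelihood test, 735 and 833 by the likelihood-ratio test, 631 and 959 by DESeq2, and 409 and 407 without that library. Leaving out wild type replicate 2 or 3, or YAP2-5SA-deltaC replicate 3, left 0 called over all genes, and leaving out wild type replicate 1 or YAP2-5SA-deltaC replicate 1 left 19 and 10 called lower and 123 and 76 called higher. The same leave-one-out fits moved the list median of matrix and cortex keratins between -3.64 and -1.57, that of inner root sheath keratins between -2.19 and -0.95 and that of all 29 genes between -2.53 and -1.16. The cause was not tested. The genotypes share replicate numbers, but same-numbered libraries did not deviate together (correlations of -0.33, -0.23 and -0.05 over 15102 genes) and none correlated best with its own number. With a replicate block 0 of the 29 genes were called, 18 had an unadjusted p below 0.05, and 0 genes were called over the whole table.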

Other observations

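Keratins outside the listed set were looked at after the values of the listed genes were known. Krt87, a type II hair keratin, had 364, 497 and 509 CPM in wild type skin and 187, 24.5 and 197 CPM in YAP2-5SA-deltaC skin, with YAP2-5SA-deltaC replicate 2 lowest and the genotypes apart (log2 fold change -1.74 ± 0.66, quasi-likelihood FDR = 0.154, likelihood-ratio FDR = 0.00904). Krt8 and Krt18, the paired keratins of simple epithelia, were scarce. Krt8 had 48, 71 and 39 counts against 23, 8 and 14 counts, and Krt18 had 44, 110 and 52 counts against 30, 5 and 16 counts. Both passed the count filter through their wild type libraries, so no test is given for them. Krt79, a keratin of the upper follicle and sebaceous duct, had 358, 246 and 179 CPM in wild type skin and 436, 372 and 483 CPM in YAP2-5SA-deltaC skin (0.72 ± 0.24, quasi-likelihood FDR = 0.12, likelihood-ratio FDR = 0.022), and its groups did not overlap, with the transgenic libraries higher. Krt90 had 3.68, 3.40 and 3.62 CPM against 3.00, 1.00 and 3.37 CPM (-0.54 ± 0.39, FDR = 0.414), and Krt88 had 0 to 3 counts in each library and was not tested.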
